A study of Mus musculus with 2 samples.

Results

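The 9 genes described here, Nrxn3, Cntnap2, Ptprd, Lsamp, Dlg2, Csmd1, Lrp1b, Rbfox1 and Rbfox3, are long genes best known for cell adhesion, synapse building and RNA splicing in neurons. They were taken by name from the 21887 protein-coding genes of the RefSeq table of GRCm38.p6 on chromosomes 1 to 19, X and Y, and a peak was assigned to a gene when it overlapped the gene span by at least 1 bp. The spans add up to 15.9 Mb, and 96 of the 40119 deposited H3K9me3 peaks overlapped them. All 9 symbols matched.

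The peaks come from 1 library precipitated for H3K9me3, called against 1 control library that carries the word input in its title and IgG in its antibody label. Both were made from intestinal stem cells of C57BL/6 mice aged 8 weeks, sorted as high in GFP and low in CD24 from 12 animals of the genotype Lgr5-EGFP-IRES-creERT2; setdb1fl/fl. Every cell therefore carried the floxed Setdb1 allele and the Lgr5 knock-in that drives GFP and an inducible Cre, and the labels do not state whether Cre had been induced. There is no second condition and no replicate, so no test was made, and intervals (exact Poisson for counts, exact Clopper-Pearson for shares, both at 95%) cover counting error only. RNA was not measured, so neither the identity of the sorted cells nor the activity of the 9 genes in them can be read from these data.

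H3K9me3, the trimethylated form of lysine 9 of histone H3, marks heterochromatin and silenced repeats, and Setdb1 is one of the enzymes that lay it down. Genes of this size consist mostly of intron. Their products are best known from neurons, and the sort was aimed at Lgr5 stem cells of the epithelium.

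The mark lay over these genes as sparse, separate peaks. The 9 genes together carried 0.602 peaks per 100 kb (95% interval 0.488 to 0.735), against 1.47 per 100 kb over the chromosomes, 1.87 over the merged spans of all protein-coding genes, and 0.764 (0.726 to 0.805) over those of protein-coding genes of at least 500 kb. Without the members, the long genes held 0.782 (0.741 to 0.825). The 9 genes thus held fewer peaks per length than the chromosomes did, and their interval ended just below that of the other long genes. Pooled density fell with gene length, however, and all of the members but Rbfox3 are above 1000 kb. The 51 other protein-coding genes of at least 1000 kb held 0.667 per 100 kb pooled, which is inside the interval of the 9. It is also inside that of the 8 members of this length, without Rbfox3, at 0.567 (0.455 to 0.698). Peaks covered 584 bp of each 100 kb of the 9 spans, against 738 bp for protein-coding genes of at least 500 kb and 1346 bp for the chromosomes. Neighbouring peaks within a gene lay a median of 104 kb apart, against 28.4 kb for all neighbouring peaks, and 7 of 87 gaps (8.05%) were within 10 kb, against 29.0% in the list as a whole. Gaps were not measured in other long genes, which are also sparse in peaks, so this spacing cannot be called particular to the 9.

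**Figure D1:**
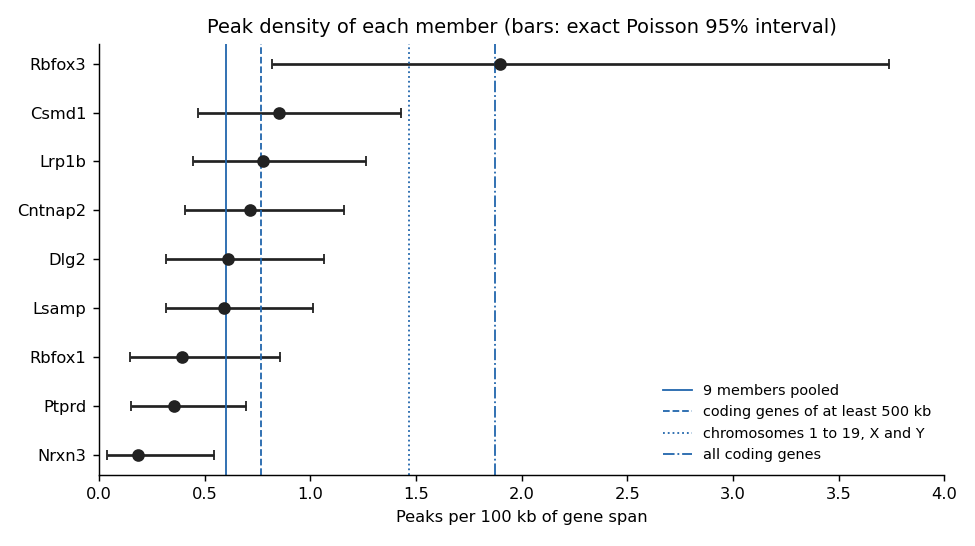
Peaks per 100 kb of gene span on the x axis for each of the 9 genes (points, with exact Poisson 95% intervals as bars), with vertical lines for the 9 genes pooled, for protein-coding genes of at least 500 kb, for the chromosomes and for all protein-coding genes. Of the 9 genes, 8 lie left of the chromosome line at 1.47, and Rbfox3 lies right of it with a wide interval.

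All 9 genes had a peak, and all 9 had a tall one. A peak is called tall here when it is in the top 10% of the whole list, at 50.8 normalized tags or more, and weak when it is below the list's median of 17.3. The presence of a tall peak in every member depends on this cut. With tall set at the top 5%, Dlg2, Csmd1, Rbfox1 and Rbfox3 had none. Normalized tags are the reads in a peak after the authors scaled the library. All peaks of the list together held 1094005 unscaled ChIP tags. A peak overlapped 46.4% of all protein-coding genes and a tall peak 5.35% of them, but length weighs heavily in both shares. Among protein-coding genes of at least 500 kb a peak was found in 97.4% and a tall one in 57.7%, and among the 59 genes of at least 1000 kb, which include 8 of the 9, a tall one was found in 76.3%. Of the 51 genes of that length outside the group, 37 had a tall peak. The 9 genes were chosen when the tall peaks of some of them were already known, so their count is a description only.

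By height, the 96 peaks divided into 13 tall, 46 middle and 37 weak. The tall share was 13.5% (7.41 to 22.0%), against 10.1% of all peaks and 13.9% of peaks in genes of at least 500 kb. The weak share was 38.5% (28.8 to 49.0%), against 48.6% of all peaks and 40.4% of those in long genes. The median peak of the group held 20.5 tags, against 16.5 in the list, and the interval of the weak share reached past the share of the list. In both shares the group lay near other long genes. The difference from the list depended on the measure of height. By score, the caller's own ranking value, 11.5% were tall in the group and in the list, and 37.5% against 40.7% were weak. By normalized tags per kb of width, 13.5% against 10.0% were tall and 39.6% against 48.7% weak.

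The classes differed in width as well as in tags. Tags are summed over the whole peak, so a wider peak can hold more, and class and width are not independent. Tall peaks were 1369 to 2520 bp wide with a median of 1954 bp and held 48.5 to 112.5 tags. Weak peaks held 9 to 16 tags, 9 being the lowest count in the list, and 23 of the 37 were exactly 500 bp wide. In the whole list tall peaks had a median width of 1923 bp and weak ones of 500 bp, so these widths are not particular to the group. The control was at its lowest deposited value, 0.5 tag, in 24 of the 37 weak peaks, in 10 of the 46 middle peaks and in none of the tall ones. It was at this floor in 35.4% of the group's peaks and in 43.0% of the list. A fold over the control at that floor depends on it, and of the 8 peaks of the group with a fold above 30, 7 stood there.

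**Figure D2:**
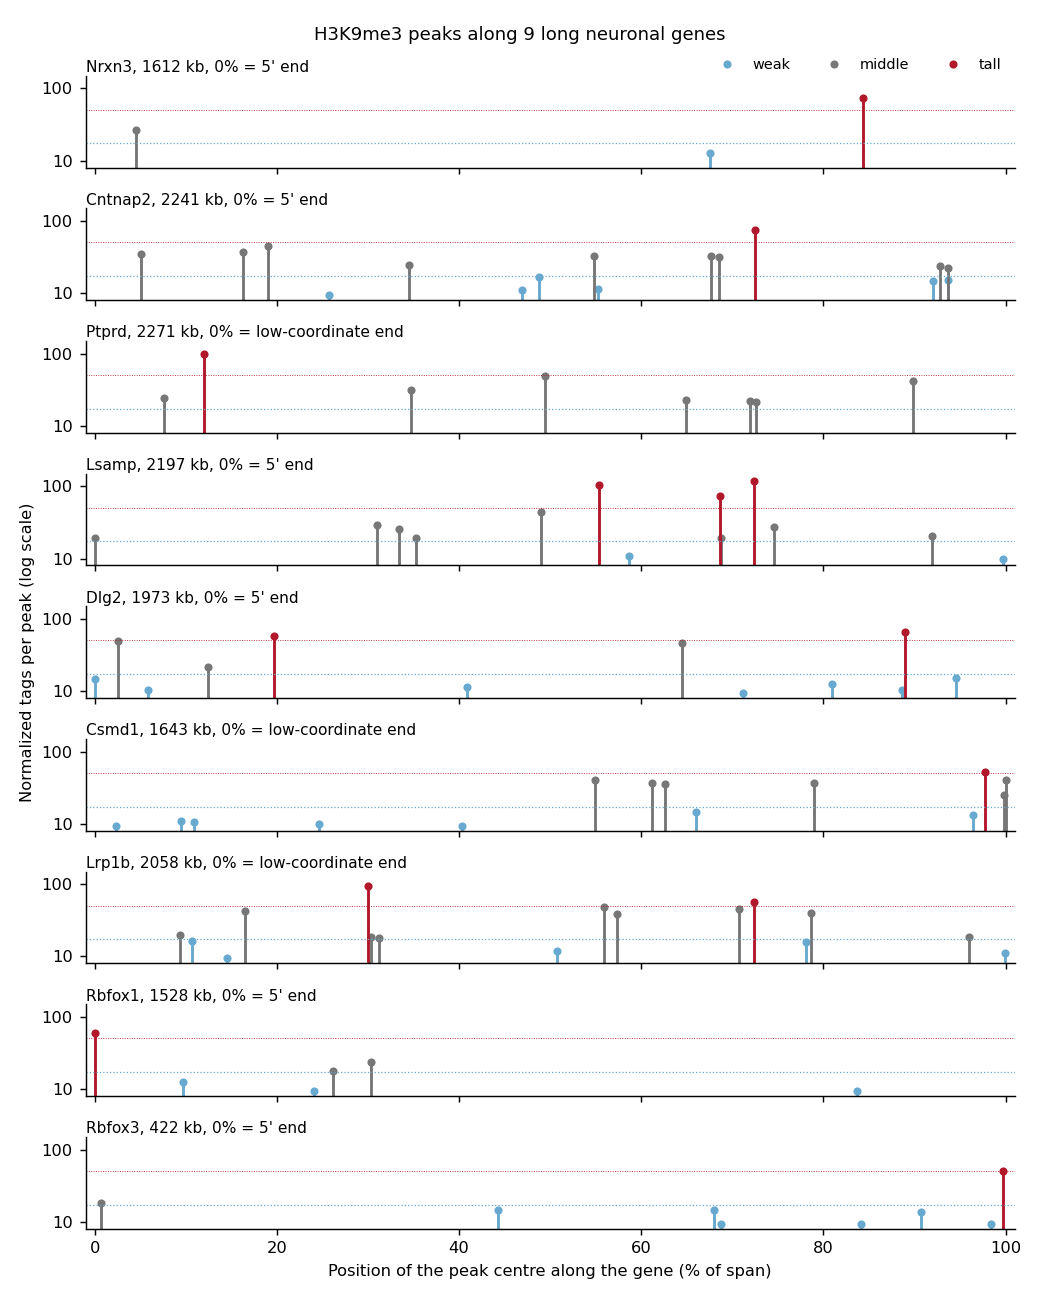
Each of the 9 panels is 1 gene, with the position of each peak centre on the x axis as a percent of the gene span and its normalized tags on a logarithmic y axis. Stems are coloured as weak, middle or tall, and the dotted lines mark the cuts at 17.3 and 50.8. Tall peaks lie at the 5′ end of Rbfox1, at the far end of Rbfox3 and inside the other genes, and Ptprd has no weak peak.

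Peaks reached the annotated starts of several of these genes, and the sequences there are shown because they are the places where the mark met a promoter. RefSeq (GRCm38.p6) lists 13 promoters, each of 250 bases before and 50 after a start, for 6 of the 9 genes. A peak overlapped 4 of the 13, against 13.1% of all 32851 promoters and 58 of 290 promoters of genes of at least 500 kb. The 4 sequences follow, 5′ to 3′ on the plus strand of the genome, with CG dinucleotides, the sites of DNA methylation, in capitals. They are the first promoters of Rbfox1 (chr16:5884543-5884842), Lsamp (chr16:39984114-39984413) and Cntnap2 (chr6:45059811-45060110) and the last listed one of Nrxn3 (chr12:89812233-89812532).
Rbfox1: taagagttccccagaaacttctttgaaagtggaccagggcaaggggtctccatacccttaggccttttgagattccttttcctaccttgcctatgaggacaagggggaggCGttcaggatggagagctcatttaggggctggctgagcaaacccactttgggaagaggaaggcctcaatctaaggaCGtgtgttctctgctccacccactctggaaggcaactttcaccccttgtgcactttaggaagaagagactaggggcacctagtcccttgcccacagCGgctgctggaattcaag
Lsamp: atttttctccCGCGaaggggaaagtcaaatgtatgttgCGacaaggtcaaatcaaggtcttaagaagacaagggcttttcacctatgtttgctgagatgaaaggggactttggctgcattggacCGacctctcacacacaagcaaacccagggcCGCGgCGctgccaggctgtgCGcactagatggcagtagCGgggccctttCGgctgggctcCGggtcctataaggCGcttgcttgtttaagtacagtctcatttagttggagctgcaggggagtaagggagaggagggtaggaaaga
Cntnap2: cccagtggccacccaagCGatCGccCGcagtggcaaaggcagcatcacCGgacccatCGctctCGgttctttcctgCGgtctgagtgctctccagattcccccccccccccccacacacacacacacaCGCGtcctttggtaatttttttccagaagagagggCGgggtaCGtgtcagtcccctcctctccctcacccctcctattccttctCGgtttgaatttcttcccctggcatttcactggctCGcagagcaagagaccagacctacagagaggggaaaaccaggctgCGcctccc
Nrxn3: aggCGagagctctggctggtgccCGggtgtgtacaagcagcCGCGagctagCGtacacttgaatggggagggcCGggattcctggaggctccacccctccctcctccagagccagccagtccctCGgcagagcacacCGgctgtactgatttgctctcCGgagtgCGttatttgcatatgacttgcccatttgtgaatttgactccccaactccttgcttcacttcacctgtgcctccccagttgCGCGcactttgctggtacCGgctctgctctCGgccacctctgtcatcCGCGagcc

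The 4 marked promoters were not alike in sequence or in how much of them the peak took. The Rbfox1 promoter held 3 CG dinucleotides and lay whole within a tall peak. The Nrxn3 promoter held 16 and lay whole within a weak peak. The Lsamp promoter held 12, and 250 of its 300 bases were in a peak of middle height, while the Cntnap2 promoter held 14 and shared 52 bases with a weak peak. CG was searched as those letters, which read the same on both strands. At least 1 CG was present in 94.6% of all promoters, and the median number was 7 in all promoters and 18 in those that a peak overlapped.

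Nrxn3, a presynaptic adhesion receptor with alternative long and short forms made from separate promoters, was the barest of the 9. It had 3 peaks in 1612 kb, which is 0.186 per 100 kb (0.0384 to 0.544), and ranked 57 of the 59 genes of at least 1000 kb in density. The peaks held 26.2, 12.6 and 72.8 normalized tags in order along the gene, which lies on the plus strand of chromosome 12. Between the first and the next lay 1016 kb without a peak, or 63.0% of the span. The first peak (88794910 to 88795938) began 406 bp after the start of the first listed promoter, and the weak one (89812109 to 89812769) covered the promoter shown above. The tall peak (90081113 to 90082482, 69.5 tags, interval 54.1 to 87.9, fold 13.59 over 3.5 control tags) lay at 84.3% of the span, away from every listed promoter.

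Cntnap2, a neurexin-like protein that helps to cluster potassium channels along the axon, had 16 peaks in 2241 kb of chromosome 6, or 0.714 per 100 kb (0.408 to 1.16). Their normalized tags ran from 9.43 to 75.4 with a median of 24.35, and 9 of the 16 were of middle height. The tall peak (46683318 to 46685830, 72 tags, interval 56.3 to 90.7, fold 14.08) was 2512 bp wide and lay at 72.5% of the span. After it came 436 kb with no peak, and 4 peaks of 14.7 to 24.1 normalized tags then stood between 47121858 and 47160906. The peak at the Cntnap2 promoter (45059177 to 45059862, 16.2 normalized tags, fold 10.61) ended 199 bp before the gene span and is not among the 16.

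Ptprd, a receptor tyrosine phosphatase that organises presynaptic terminals, was alone among the 9 in having no weak peak. It had 8 peaks in 2271 kb of chromosome 4, the longest span, at 0.352 per 100 kb (0.152 to 0.694). With 0 of 8 peaks weak, the interval of the weak share runs up to 36.9%. The lowest peak held 21.5 normalized tags and the tallest 98.5 (76213309 to 76215278, 94 tags, interval 76.0 to 115, fold 12.86). A second high peak of 49.8 (77062692 to 77063861, fold 32.50 over 1 control tag) lay just under the tall cut. No peak lay within 2 kb of either end of Ptprd, and the nearest one outside it was 9.45 kb below the low-coordinate end.

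Lsamp, a limbic-system adhesion protein of the IgLON family held to the membrane by a lipid anchor, carried the most tall peaks of the group. It had 13 peaks in 2197 kb of chromosome 16 (0.592 per 100 kb, 0.315 to 1.01), of which 3 were tall and 2 weak. The tall peaks held 105.8, 74.4 and 117.9 normalized tags and lay at 55.4, 68.6 and 72.4% of the span. They carried 56.9% of the ChIP tags in the peaks of the gene. The tallest (41574730 to 41576801, 112.5 tags, interval 92.7 to 135) stood over 13.5 control tags, the highest control value in the group, at a fold of 5.70, whereas the peak at 41199936 to 41202456 stood over 2.5 control tags at 27.64. The peak at the Lsamp start (39984164 to 39984959) held 19.4 normalized tags at a fold of 8.44, and 681 kb without a peak followed it.

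Dlg2, a postsynaptic scaffold protein also known as PSD-93, had 12 peaks in 1973 kb of chromosome 7, or 0.608 per 100 kb (0.314 to 1.06). Weak peaks made up 7 of the 12 (58.3%, 27.7 to 84.8%), and 5 of the 12 lay in the first 20% of the span. The first peak (90476195 to 90476901, 14.7 normalized tags) began 7 bp inside the 5′ end, where the promoter table lists no start. The 2 tall peaks (90863855 to 90865295 and 92229869 to 92231826) were close in height, at 57.6 and 65.5 normalized tags. They differed in fold, at 6.27 over 6 control tags and 28.51 over 1.5. The latter lay 3.14 kb before an internal promoter of Dlg2, and 9.59 kb separated another internal promoter from a weak peak.

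Csmd1 and Lrp1b are very large membrane proteins, the former with complement-like domains and a part in limiting complement, the latter a relative of the LDL receptor. Csmd1 was the densest of the 8 genes above 1000 kb, with 14 peaks in 1643 kb of chromosome 8, or 0.852 per 100 kb (0.466 to 1.43). Its strand is not in the tables used here, so positions are given from the low-coordinate end. The 5 peaks in the first 40.3% of the span were all weak and held 9 to 10.5 unscaled tags. Of the 9 peaks beyond 54.9%, 2 were weak and the others held 25.1 to 52.9 normalized tags. The high-coordinate end of Csmd1 was crowded, with 4 peaks within the last 4% of the span. Among them were the tall peak (17498010 to 17499512, 50.5 tags, interval 37.5 to 66.5, fold 13.82) and a peak across the end itself (17534460 to 17535968, 40.9 normalized tags, fold 7.62). The weak peak of those 4 also overlapped C030002A05Rik.

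Lrp1b had 16 peaks in 2058 kb of chromosome 2, or 0.777 per 100 kb (0.444 to 1.26), with 2 tall, 9 middle and 5 weak. The tallest (41212515 to 41214469) held 95.3 normalized tags and was followed by peaks of 18.9 and 17.8. The other tall peak (42083223 to 42084638) held 56.6, and its score of 9.5 was below the list's median score of 11. The peak of Lrp1b with the highest fold in the group, 56.11, was of middle height (40935387 to 40936454, 41 tags, interval 29.4 to 55.6) and rested on 0.5 control tag. A weak peak of 10.5 unscaled tags lay 594 bp inside the high-coordinate end.

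Rbfox1 and Rbfox3 encode RNA-binding proteins that steer alternative splicing, and Rbfox3 is the neuronal nuclear antigen NeuN. Rbfox1 had 6 peaks in 1528 kb of chromosome 16, or 0.393 per 100 kb (0.144 to 0.855). Its tall peak lay across the 5′ end (5884423 to 5886282, 60.2 normalized tags, 57.5 tags, interval 43.6 to 74.4, fold 8.74 over 4.5 control tags) and covered all of the promoter printed above. This peak was 1859 bp wide, and its score of 10.5 was below the list's median score of 11. The next 4 peaks held 9.43 to 23.6 and ended at 30.4% of the span, after which 814 kb, or 53.3% of the gene, held none. A last, weak peak of 9.43 lay at 83.7%, and it was the nearest to the second listed promoter, 93.9 kb from its start.

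Rbfox3 lies on the minus strand of chromosome 11 and, at 422 kb, is the shortest of the 9. It was the densest, with 8 peaks at 1.90 per 100 kb (0.819 to 3.74). Of 763 protein-coding genes of 200 to 500 kb, 92 were as dense or denser, and the median of those genes was 0.823. It was also the weakest in height, with 6 weak peaks, 1 middle and 1 tall, and the control was at its floor in 7 of the 8. The tall peak (118490113 to 118491687) stood exactly at the cut of 50.8 normalized tags, at the 3′ end of the gene. The peak nearest the 5′ end held 18.3 and lay 2.50 kb inside it. Only 1 of the 8 peaks reached the median score of the list, the caller's own ranking value.

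**Figure D3:**
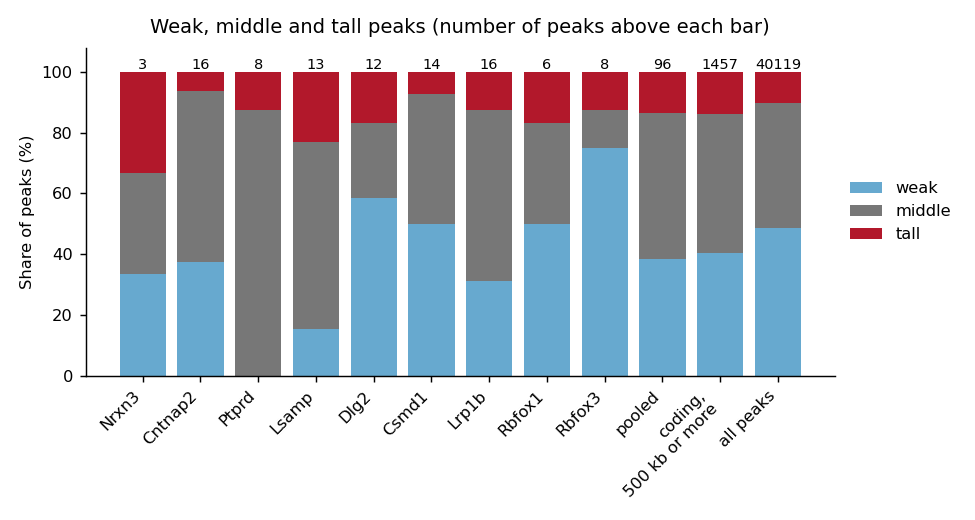
Stacked bars give the share of weak, middle and tall peaks in each gene, in the 9 pooled, in protein-coding genes of at least 500 kb and in the whole list, with the number of peaks above each bar. Weak shares run from 0 in Ptprd to 75% in Rbfox3, and the pooled bar is close to that of long genes.

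Near the cut, the tall peaks of Rbfox3 (50.8), Csmd1 (52.9) and one of Lrp1b (56.6) lay just above, and peaks of Lrp1b (48.7), Dlg2 (49.2) and Ptprd (49.8) just below. The order of the genes by density, from Nrxn3 through Ptprd, Rbfox1, Lsamp, Dlg2, Cntnap2, Lrp1b and Csmd1 to Rbfox3, is of neighbours whose intervals overlap at each step. The intervals of Nrxn3 and Rbfox3 at the ends of the order do not overlap. Among the 227 protein-coding genes of at least 500 kb, Csmd1 stood at percentile 70.9 in density, Lrp1b at 64.8, Cntnap2 at 57.3, Dlg2 at 46.7, Lsamp at 45.4, Rbfox1 at 22.5, Ptprd at 15.4 and Nrxn3 at 9.25. These members, which do not include the shorter Rbfox3, thus spread from percentile 9.25 to 70.9. None of them stood among the densest long genes.

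Counted in 5 equal parts, the peaks showed no preferred part of the genes at this number of peaks. Parts of this size are too coarse to show a gathering at the gene ends themselves, which are described below. Taken from the 5′ end, or from the low-coordinate end for Ptprd, Csmd1 and Lrp1b, the parts held 22, 13, 15, 23 and 23 peaks. In the 6 genes of known strand alone they held 13, 8, 9, 12 and 16. For all genes together the first part held 22.9% (15.0 to 32.6%) and the last 24.0% (15.8 to 33.7%), and both intervals include the even share of 20%. Within the 13 tall peaks the parts held 3, 1, 1, 4 and 4. The fullest end parts of single genes were the first of Dlg2, with 5 of 12 peaks (41.7%, 15.2 to 72.3%), and the last of Rbfox3, with 4 of 8 (50%, 15.7 to 84.3%), and these intervals include 20% as well.

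Peaks lay close to an end of most of the genes. A peak lay within 2 kb of an end in 7 of the 9 genes, all except Nrxn3 and Ptprd, against 36.5% of all protein-coding genes and 40.1% of those of at least 500 kb. At 4 of the 7 (Cntnap2, Lsamp, Dlg2 and Rbfox1) the end was the 5′ end, at Rbfox3 it was the 3′ end, and at Csmd1 and Lrp1b it was the high-coordinate end.

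Beside the genes peaks were more frequent than inside them. The 500 kb on either side of the 9 genes, an added comparison, held 187 peaks or 2.08 per 100 kb (1.79 to 2.40), against 0.602 inside, and the density beside the gene was the higher one for each of the 9. Of the flanking peaks, 93 lay beside Rbfox3 and 27 beside Cntnap2, and 20 of the latter were tall. Without Rbfox3 the flanks held 1.18 per 100 kb (0.950 to 1.44) and the genes 0.567, and without Rbfox3 and Cntnap2 the values were 0.957 (0.742 to 1.22) and 0.542 (0.424 to 0.683). The intervals inside and beside the gene did not overlap for Nrxn3, Cntnap2 and Rbfox3. For Lrp1b they were close to equal, at 0.777 inside and 0.800 beside it. The flanks of Rbfox3 hold 10 protein-coding genes on one side and 12 on the other, while those of Ptprd, Csmd1, Lrp1b and Rbfox1 hold none, and the part of neighbouring genes in the difference was not tested.

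**Figure D4:**
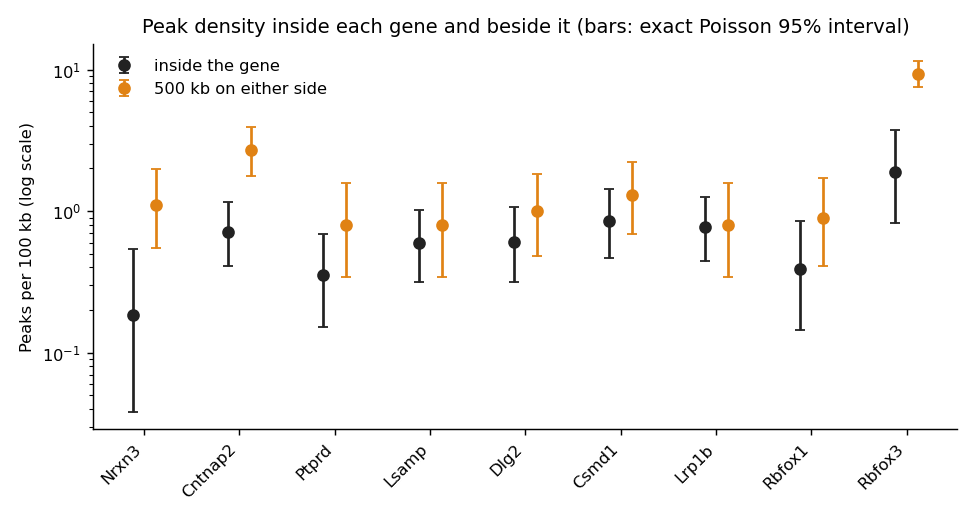
Peaks per 100 kb on a logarithmic y axis inside each gene (black) and in the 500 kb on either side (orange), with exact Poisson 95% intervals. The orange point is above the black one for every gene. The distance is widest for Nrxn3 (1.10 against 0.186) and Rbfox3 (9.30 against 1.90) and narrowest for Lrp1b.

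Relatives of the 9 genes, 24 of the same families, differed in density between short and long genes. A peak was found in 22 of the 24 and a tall one in 9, against 46.4% and 5.35% of all protein-coding genes. Their median density was 0.877 per 100 kb. The 9 relatives of at least 500 kb all had a peak and 6 had a tall one, against 97.4% and 57.7% of all 227 genes of that length. These 9 had a median of 0.529, beside 0.600 for the 8 members of that length and 0.655 for all 227 such genes. The densest of at least 100 kb included the neurexin gene Nrxn2 (5.24 per 100 kb in 114 kb) and the scaffold gene Dlg5 (2.68 in 112 kb). A peak that touches a short gene counts for a high density by construction. Rbfox2, a splicing regulator of the same family, had no peak in 229 kb, which allows up to 1.61 per 100 kb.

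The paralogues of Csmd1 fell on both sides of it. Csmd2 was far denser, with 25 peaks in 581 kb or 4.30 per 100 kb (2.78 to 6.35), 18 of them weak and 3 tall, with a tallest of 101.1 normalized tags. Csmd3 had 2 peaks in 1212 kb, or 0.165 (0.0200 to 0.596). Cntnap3 (3 peaks, 1.80 per 100 kb) had the tallest peak of the relatives, at 104.8 normalized tags (100 tags over 4 control tags). Cntnap4 had 3 peaks at 0.959 per 100 kb and 1 tall one.

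Other long or synaptic genes of neurons, 63 in all, gave much the same picture. A peak was found in 56 and a tall one in 24, against 46.4% and 5.35% of all protein-coding genes. The median density was 0.645 per 100 kb, and 10.7% of their peaks were tall. The list includes short genes. Of its 41 genes of at least 500 kb, 39 had a peak and 22 a tall one, at a median of 0.574 per 100 kb. Among all protein-coding genes of that length the shares were 97.4% and 57.7%, and the median was 0.655. The densest of at least 100 kb were the adhesion genes Sdk2 (3.44), Cdh13 (2.28, with 20 of 27 peaks weak), Tenm3 (1.31), Tenm4 (1.08) and Cdh12 (1.04). The tallest peaks were in Pcdh9 (150.9 normalized tags), Nav3 (99.5) and Astn2 (96.4). Presynaptic Rims1 and Syt1, both above 500 kb, had none, which allows up to 0.709 and 0.719 per 100 kb.

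**Figure D5:**
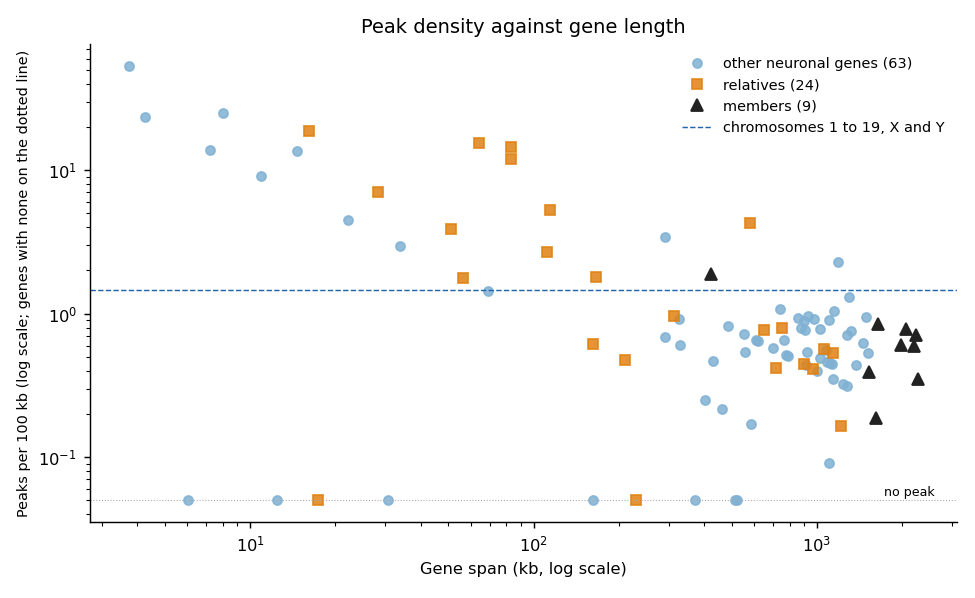
Peaks per 100 kb against gene span, both on logarithmic axes, for the 9 members, 24 relatives and 63 other neuronal genes, with genes without a peak drawn on the dotted line at the bottom and the chromosome density as a dashed line. Short genes with a peak lie high, since a single peak weighs more in them, and the members lie among the other long genes.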

How the data were processed

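The study profiled H3K9me3 by ChIP-seq in sorted mouse intestinal stem cells. The submitters' processing notes name Bowtie2 2.2.8, HOMER 4.10.1 and the builds GRCm38 and mm10. The caller's options are not stated there, and neither is the library total. Per the file headers, the normalized tag count and the control tags are signals (tags per peak), the fold over control is a ratio with a lowest value of 4, the score is the caller's own value, and each peak has a p-value from the caller, which was not used. The deposited folds match normalized tags times 0.653 over control tags. They are therefore not the ChIP tags given here divided by the control tags. Widths and positions are in bp as the authors deposited them.

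Low normalized counts were whole multiples of 0.524 in 100% of cases (tolerance 0.1), taken as 0.5 tag, so tags per peak were recovered. Spans came from the RefSeq table of GRCm38.p6, and strand for 6 genes from its promoter table. Intervals and limits cover counting error only, since reads without molecular identifiers are not independent molecules. Alternatives changed the overlap rule, the peak set, the height measure and the members kept. Sequence came only from the RefSeq promoter table, and exons and repeats were not used. The genes, lists and rules were chosen with earlier results of these data known. Named genes were all 9 members, the 5 densest of at least 100 kb and the 3 with the tallest peaks in each related list, and, among other genes of at least 500 kb, the 5 densest and the 5 most like the members. Some genes that this rule names are not reported here. Rbfox2, Csmd3, Rims1 and Syt1 were named after their values were seen. Overlap counting was checked on 200 spans of simulated peaks, and all counts were recovered. Python 3.11.15, scipy 1.17.1.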

Additional observations from a re-analysis of the deposited data

How the results depend on the processing

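The density of the 9 genes relative to the chromosomes was 0.410 and stayed between 0.386 and 0.470 under every peak set, overlap rule and omission of a gene that was tried (the omissions of Rbfox3 and of Nrxn3 were chosen after the data were seen). The density itself fell to 0.483 per 100 kb with peaks of at least 8-fold and to 0.376 with peaks at or above the median score, since both settings keep fewer peaks. Tall peaks made up 7.29% of the 96 with tall set at the top 5% of the list and 34.4% at the top 20%, where the list itself has 5.03% and 20%. The median fold of 12.32 went to 9.58 without peaks at the lowest control value. The other 34 of 39 alternatives moved a value by less than its interval, or a count by less than 1.5 times. Single genes moved more, with Lsamp at 8 peaks among those of at least 8-fold, and Cntnap2 at 9, Rbfox1 at 2 and Rbfox3 at 1 among those at or above the median score. No paired analysis was possible because each group has 1 library. A peak of 9 tags has an interval of 4.12 to 17.1, and with 3 to 16 peaks a gene the intervals of single genes are wide.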

Other observations

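Apart from the 9, the protein-coding genes of at least 500 kb with the most peaks per 100 kb were Gm37013 (8.55), Gm38666 (8.35) and Gm38667 (8.29), which overlap one another on chromosome 18, then Csmd2 (4.30) and St6galnac3 (3.61), a sialyltransferase gene with 19 peaks, none of them tall.

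Among the genes of that length most like the pooled 9, by the summed difference in percentile of density, of tall peaks per length and of the weak share, were Robo2 (13.9), an axon guidance receptor, Lrmda (20.1) and Galntl6 (30.2). Robo2 had 8 peaks at 0.514 per 100 kb, 1 of them tall and 3 weak. Likeness was measured over 227 genes in 1 library and says nothing of shared control.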
